A study of Capsella grandiflora and Capsella rubella with 18 samples.

Results

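Of 19350 gene rows, 85 were at least 4-fold higher in flower buds of Capsella rubella than in those of Capsella grandiflora. A row was taken when the mean log2(FPKM + 1) of the 4 C. rubella bud libraries exceeded that of the 4 C. grandiflora bud libraries by at least 2, when the lowest C. rubella value lay above the highest C. grandiflora bud value, and when the latter was above 0.5 FPKM. FPKM expresses sequenced fragments relative to the length of the transcript and the depth of the library. The members were thus chosen by the bud values of these 8 libraries. Polyadenylated RNA came from mixed-stage flower buds of both species and from maturing leaves of C. grandiflora, all grown in a greenhouse. Of the C. grandiflora bud plants, 3 were raised from wild-collected seed and 1 was an F1 of parents from Corfu. The 4 C. rubella plants came from Greece and Italy, and 1 of them had been inbred in the greenhouse. The 10 leaf libraries came from other C. grandiflora plants, 9 from wild-collected seed and 1 a Corfu F1.

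C. grandiflora is an obligate outcrosser that rejects its own pollen. C. rubella descends from grandiflora-like ancestors, lost that self-incompatibility and sets seed by itself, with smaller flowers than its relative. Plants of an outcrosser differ from each other and carry unlike alleles at many genes, whereas selfing lines are largely homozygous. No names or functions accompany the IDs in the deposited table, so each gene carries its ID and its position on the build that the header calls CR v1 JGI, and no role is assigned to any of them. The labelled tissues could not be checked against marker genes for the same reason.

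The deposited bud values summed to between 576725 and 657140 FPKM per library and the leaf values to between 1307609 and 1858148. Bud and leaf columns also differ in rounding, so a level in leaf is set beside a level in bud only as deposited. In the columns of C. grandiflora bud 1 and C. rubella bud 1, the value 0.5 stands where other columns list 0. C. grandiflora bud 3 stood apart from its group. In 395 of 16923 tested rows (2.33%) it lay at least 1 log2 unit below the other 3 C. grandiflora buds, where each of the others did so in 49 to 54 rows. In bulk tissue, fewer cells of a type and less RNA per cell cannot be told apart.

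The rule was met in steps. A difference of at least 2 was found in 123 rows, 98 of these had every C. rubella bud above every C. grandiflora bud, and 13 of the 98 were left out because no C. grandiflora bud exceeded 0.5 FPKM. The mirrored rule, with C. grandiflora the higher species, was met by 65 rows. Differences of the 85 members ran from 2.002 to 6.02 on the log2 scale, with a median of 2.65 and quartiles of 2.19 and 3.03. In 24 members the difference was at least 3 and in 6 it was at least 4. These bud values chose the members, so they are a description and no test of the species difference is given for them.

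Members were mostly below the middle of all rows in C. grandiflora buds and mostly above it in C. rubella buds. The median of the members' means was 2.59 FPKM in buds of C. grandiflora and 22 FPKM in those of C. rubella, where the median over all 16923 tested rows was 13.2 and 13.5 FPKM. The quartiles of the C. rubella means were 12.7 and 68.7 FPKM for members and 5.91 and 28.6 FPKM for all tested rows. All 85 members reached a mean of 5 FPKM in C. rubella, 74 reached 10 and 12 reached 100. In C. grandiflora no bud reached 1 FPKM in 8 members, and none reached 5 FPKM in 39. In the fit over all rows, 84 members passed the filter of 1 FPKM in 4 of the 8 libraries, and all 84 did so with their 4 C. rubella buds alone. Among all tested rows 14.0% had every C. rubella bud above every C. grandiflora bud, as the rule required of the members. The member that failed the filter was Carubv10021136m.

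**Figure D1:**
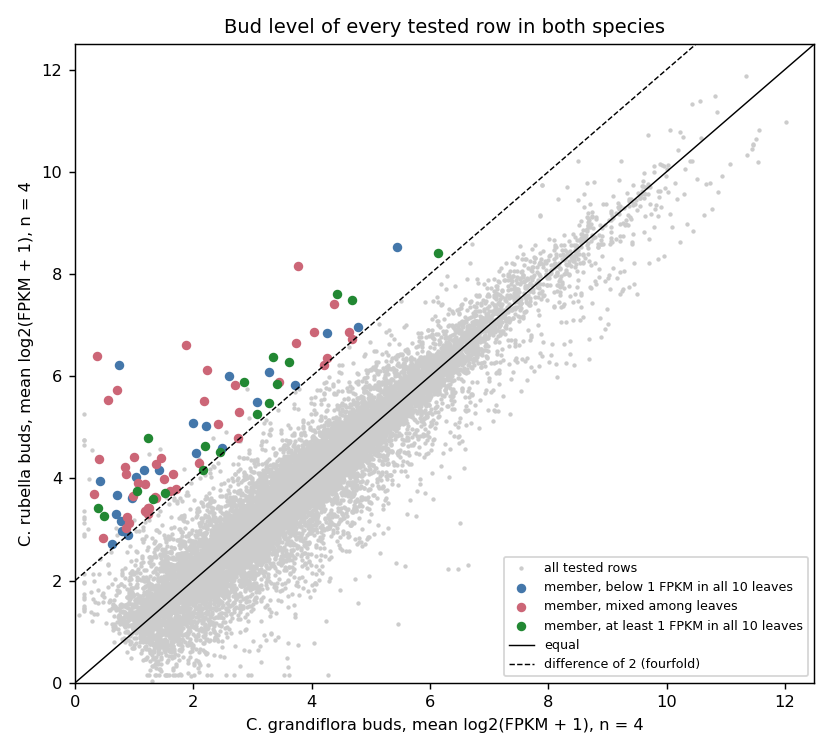
Mean log2(FPKM + 1) over the 4 C. grandiflora buds (horizontal) against that over the 4 C. rubella buds (vertical), with 1 point per tested row and the members coloured by their pattern in leaf. The members lie above the dashed line that marks a difference of 2, between 2.002 and 6.02, mostly at low C. grandiflora levels.

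Several of the largest differences were in genes near 0 FPKM in C. grandiflora buds and well above it in every C. rubella bud. C. grandiflora reads that differ from the CR v1 JGI build could be counted less well, and their part in these low values was not tested. Carubv10001442m (scaffold 6, 681486 to 683895) stood at 0.5, 0, 0.23 and 0.53 FPKM in C. grandiflora buds 1 to 4 and at 84.99, 106, 73.9 and 71.5 FPKM in C. rubella buds 1 to 4. The buds of each species were even among themselves, and the difference was 6.02 (SE 0.18). Carubv10025295m (scaffold 4, 252553 to 253987) stood at 0.5, 2.2, 0 and 0.64 FPKM in C. grandiflora and at 85.04, 72.7, 87.0 and 55.4 FPKM in C. rubella buds, a difference of 5.48 (SE 0.33). All 10 leaf libraries list it at 0, so it was seen at more than 2.2 FPKM in C. rubella buds alone. Carubv10016150m (scaffold 3, 14983243 to 14983784) was listed at 0 in C. grandiflora buds 3 and 4 and stood at 0.5 and 1.01 FPKM in buds 1 and 2, against 16.8 to 23.2 FPKM in C. rubella. Its difference was 3.98 (SE 0.24).

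Not all of the strongest members were near 0 FPKM in every C. grandiflora bud. Carubv10005768m (scaffold 7, 10205200 to 10206618) stood at 6.5, 2.67, 3.31 and 3.15 FPKM in C. grandiflora and at 82.8, 64.6, 59.9 and 67.5 FPKM in C. rubella, a difference of 3.88 (SE 0.22). Carubv10002575m (scaffold 6, 11415088 to 11415464) was uneven in C. grandiflora, listed at 0 in buds 2 and 3 but at 16.5 and 9.13 FPKM in buds 1 and 4. Its C. rubella values were 155, 95.5, 67.8 and 88.8 FPKM, so the libraries did not overlap, and the difference was 4.75 (SE 0.94).

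The most abundant members in C. rubella buds were already well expressed in some C. grandiflora buds. Carubv10024808m (scaffold 4, 7774122 to 7775629) had the highest C. rubella mean, at 590, 235, 358 and 370 FPKM in buds 1 to 4. In C. grandiflora it stood at 102, 88.7, 2.68 and 104 FPKM, so that bud 3 alone was low. With all libraries the difference was 3.09 (SE 1.03), and without C. grandiflora bud 3 it was 1.90. Carubv10024167m (scaffold 4, 5785339 to 5787693) ranged from 282 to 434 FPKM in C. rubella and from 17.8 to 157 FPKM in C. grandiflora buds, with a difference of 2.27 (SE 0.58). Carubv10014551m (scaffold 3, 14671978 to 14673016) fell into pairs within C. grandiflora, at 6.95 and 4.46 FPKM in buds 1 and 2 and at 68.6 and 61.1 FPKM in buds 3 and 4. All of its C. rubella buds were higher, at 135 to 208 FPKM, and the difference was 3.03 (SE 0.82).

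The threshold fell within a continuous range of differences. Just inside were Carubv10024178m, Carubv10017944m and Carubv10024819m, with differences of 2.02, 2.01 and 2.002. Just outside were Carubv10006043m, Carubv10002296m and Carubv10010090m, which met the rest of the rule with differences of 1.98, 1.97 and 1.97. Carubv10017944m (scaffold 5, 8601767 to 8602953) measured 2.71, 1.98, 6.45 and 3.8 FPKM in C. grandiflora and 12, 24.96, 15.1 and 18.5 FPKM in C. rubella buds. Carubv10006043m (scaffold 7, 5623399 to 5624299) measured 8.24, 14.9, 14.3 and 12.6 FPKM and 44.8, 59.5, 47.5 and 53.0 FPKM.

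Members varied more among C. grandiflora than among C. rubella buds. The median SD of log2(FPKM + 1) over 4 libraries was 0.85 for the C. grandiflora buds and 0.31 for those of C. rubella, and 70 of the 85 members had the larger SD in C. grandiflora. Over all tested rows these medians were 0.20 and 0.17, and 56.1% of rows had the larger SD in C. grandiflora. The rows of the mirrored rule, low in C. rubella, had medians of 0.49 and 0.52, and 34 of 65 had the larger SD in C. rubella. The rule used these same bud values, so the spreads are given with no test.

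The steadiest members in C. rubella were Carubv10007818m (scaffold 7, 7158800 to 7159165) and Carubv10001811m (scaffold 6, 500279 to 501595). The first stood at 9.78, 10.2, 9.83 and 9.18 FPKM in C. rubella and at 3, 0, 6.62 and 0 FPKM in C. grandiflora buds. The second stood at 8.99, 7.87, 8.44 and 8.51 FPKM in C. rubella. Among its C. grandiflora buds only bud 4 exceeded 0.5 FPKM, at 6.57 FPKM. Both were nearly constant in C. rubella and uneven in C. grandiflora. The least steady in C. rubella were Carubv10021136m (scaffold 2, 1403080 to 1404123), at 27.0, 19.0, 0.76 and 7.71 FPKM, and Carubv10015468m (scaffold 3, 5043914 to 5045850), at 4.53, 46.4, 3.9 and 4.18 FPKM. In C. grandiflora buds the former stayed between 0 and 0.73 FPKM and the latter between 0 and 1.82 FPKM.

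A group of 14 members was low in C. grandiflora bud 3 alone, at least 1 log2 unit below each of the other 3 C. grandiflora buds. That is 16.5% of members, against 2.33% of tested rows. Bud 1 stood so far below the others in 1 member, bud 2 in 5 and bud 4 in 4, and a rule on the mean admits rows more readily when 1 library is low. The median difference of the 14 was 2.42, and it was 1.69 without bud 3, when 10 of the 14 no longer reached 2. The other 71 members had a median of 2.67 with and without it, and 7 of them no longer reached 2. In 8 of the 14, no leaf library reached 1 FPKM, and the same held in 217 of the 395 tested rows that were low in bud 3.

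Examples chosen after their values were seen show the pattern. Carubv10007254m (scaffold 7, 16110758 to 16113118) stood at 35.7, 30.3, 0 and 25.5 FPKM in C. grandiflora buds 1 to 4 and at 49.1 to 66.7 FPKM in C. rubella. Its difference was 2.11 with bud 3 and 0.87 without it. Carubv10025211m (scaffold 4, 11390783 to 11392094) was at 14.9, 8.74, 0 and 7.74 FPKM in C. grandiflora and at 43.5 to 83.6 FPKM in C. rubella, and its difference of 3.40 was still 2.53 without bud 3. Both were listed at 0 in all leaf libraries. The species difference of the former was thus below 1 without that plant, and that of the latter was above 2.

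**Figure D2:**
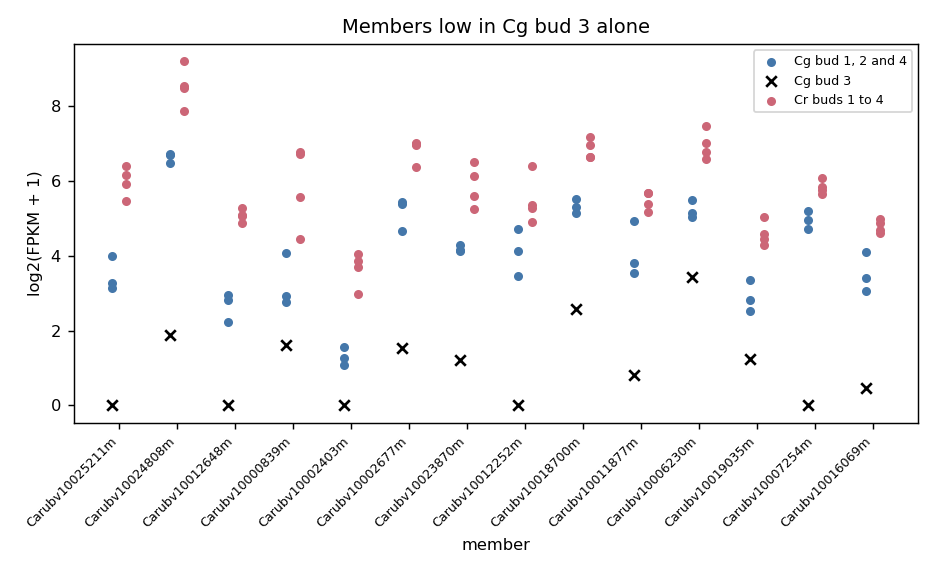
Log2(FPKM + 1) of the 14 members that lay at least 1 unit lower in C. grandiflora bud 3 (crosses) than in C. grandiflora buds 1, 2 and 4 (blue), beside the 4 C. rubella buds (red). The red points lie above all blue points of the same gene, while the gap to buds 1, 2 and 4 is smaller than the gap to bud 3.

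Leaf levels of C. grandiflora were not used by the rule, but bud levels of that species were. Members fell into unlike leaf patterns, in classes defined after the values were seen. In 23 members (27.1%) all 10 leaf libraries were below 1 FPKM, in 18 (21.2%) all were at 1 FPKM or above, and in 44 (51.8%) some were below and some were not. Among all tested rows these shares were 10.8%, 73.1% and 16.1%. Of the 65 rows of the mirrored rule, 34, 13 and 18 fell into these classes. In 11 members (12.9%) every leaf library held a 0, against 3.66% of tested rows.

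**Figure D3:**
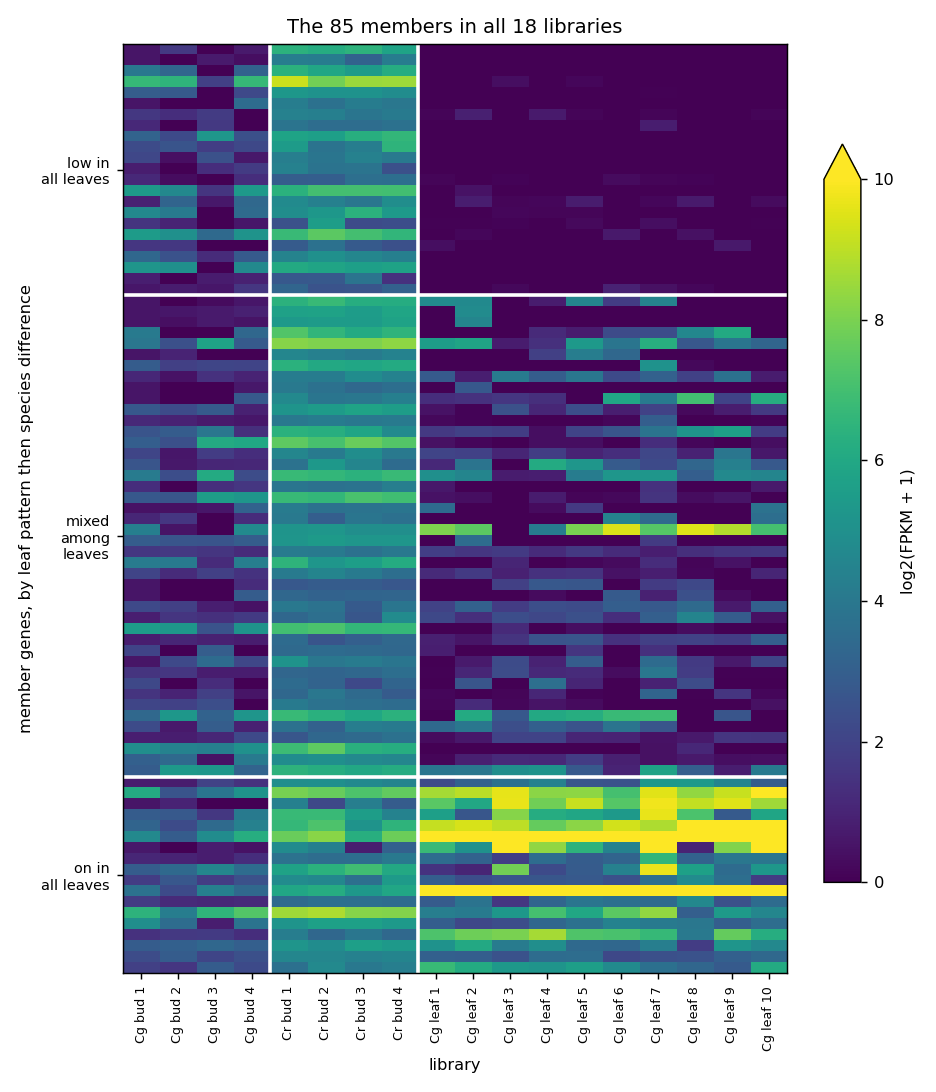
Log2(FPKM + 1) of the 85 members (rows) in the 18 libraries (columns), split by leaf pattern and ordered by species difference within each. C. rubella buds are the more even block, and 44 members have leaf values on both sides of 1 FPKM. The colour scale ends at 10, and higher values share its last colour.

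The members also varied widely from leaf to leaf. Scored as on in some leaves and off in others, taken as at least 5 FPKM in 1 library or more and listed at 0 in 1 or more, were 21 members (24.7%). The share was 2.10% of all tested rows and 1.54% (1 of 65) of the rows of the mirrored rule. Counting only rows that reached 5 FPKM in some leaf, 21 of 49 members (42.9%), 356 of 13218 tested rows (2.69%) and 1 of 18 mirrored rows (5.56%) were listed at 0 in another leaf. When members were chosen without C. grandiflora bud 3, 21 of 78 (26.9%) showed this pattern. Members were chosen as low in buds of C. grandiflora, the species of the leaves, where their median was 2.59 FPKM against 13.2 FPKM for tested rows. Mirrored rows were chosen as the higher ones in those buds. Neither set is thus matched to the members in bud level, and the part of that choice in these shares was not tested.

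Among rows with a leaf mean of at least 1 FPKM, the SD of log2(FPKM + 1) over the 10 leaf libraries was at least 1 in 39 of 51 members (76.5%), 1219 of 14198 tested rows (8.59%) and 6 of 20 mirrored rows (30.0%). The median SD was 1.26, 0.46 and 0.80 in the same order. Split by leaf level, members were also above all tested rows. At a leaf mean of 1 to 10 FPKM the median SD was 1.20 for 27 members and 0.52 for tested rows, at 10 to 100 FPKM it was 1.66 for 14 members and 0.42, and at 100 FPKM or more it was 1.33 for 10 members and 0.48. The mirrored rows had medians of 0.74 (10 rows), 0.79 (9 rows) and 1.90 (1 row) at these levels. These shares and medians stand beside those of all tested rows as a description, with no test of the difference and no matching in bud level.

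**Figure D4:**
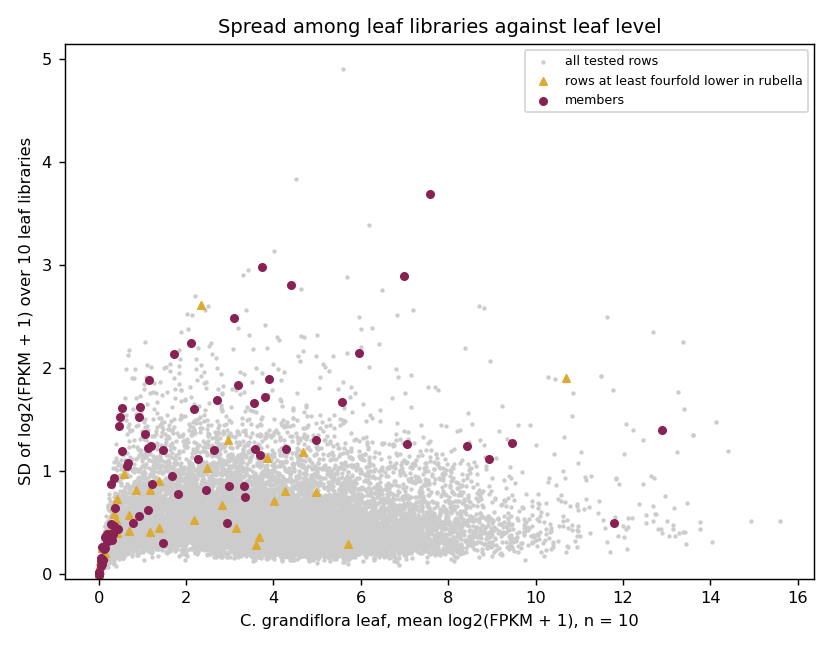
SD of log2(FPKM + 1) over the 10 C. grandiflora leaf libraries (vertical) against the mean leaf level on the same scale (horizontal), for all tested rows (grey), the 85 members (purple) and the 65 rows of the mirrored rule (yellow triangles). Among rows with a leaf mean of at least 1 FPKM, the median SD is 1.26 for members, 0.80 for mirrored rows and 0.46 for tested rows.

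Of the 21 members on in some leaves and off in others, 8 reached 5 FPKM in a single library and 6 in 2. C. grandiflora leaf 7 was the highest leaf library in 20 of the 85 members (23.5%) but in 6.98% of tested rows, and leaf 2 in 11 (12.9%) against 5.40%. Leaf 7 also had the largest FPKM sum of the leaf libraries, 1858148. It was listed at 0 in the fewest members (23) and in the fewest tested rows (1269). Among the members highest in leaf 2, Carubv10017607m, Carubv10018558m and Carubv10017459m lie close together on scaffold 5. Leaving out 1 leaf library at a time left between 17 and 21 members with the pattern.

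Carubv10005768m, described above, measured 33.1 FPKM in leaf 7, 0.16 in leaf 8 and was listed at 0 in the other 8 leaves. Carubv10016150m measured 17.7, 9.14 and 2.71 FPKM in leaves 5, 6 and 4 and was listed at 0 in the other 7. A few C. grandiflora leaves were well above 1 FPKM in these members and the remaining ones were near or at 0. Carubv10002575m reached 65.7 FPKM in leaf 9 and 23.5 FPKM in leaf 8, and it was listed at 0 in 4 leaves.

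The widest leaf ranges among members listed at 0 in some leaf were found in Carubv10015002m, Carubv10005963m, Carubv10002371m and Carubv10014902m. Carubv10015002m (scaffold 3, 1115440 to 1116540) was listed at 0 in leaves 1, 8 and 10, stood at 5.74 and 5.21 FPKM in leaves 3 and 9 and at 64.1 to 114 FPKM in the other 5. No leaf lay between these levels. In buds it showed a smaller contrast within C. grandiflora, with 9.51 and 7.89 FPKM in buds 1 and 3 and 38.5 and 36.1 FPKM in buds 2 and 4, against 60.4 to 106 FPKM in C. rubella.

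Carubv10005963m (scaffold 7, 15420220 to 15422114) was listed at 0 in leaf 3 and reached 727 FPKM in leaf 8, with a median of 214 FPKM. In C. grandiflora buds it was at 19.2 and 26.2 FPKM in buds 1 and 4 and at 0.46 and 0 in buds 2 and 3, against 29.5 to 36.7 FPKM in C. rubella. The highest C. grandiflora bud lay just under the lowest C. rubella bud, and the difference was 2.66 (SE 1.05). Carubv10002371m (scaffold 6, 10645254 to 10647472) measured 16.4, 59.0, 73.5 and 124 FPKM in leaves 7, 6, 10 and 8 and no more than 3.03 FPKM in the other 6. Carubv10014902m (scaffold 3, 12705740 to 12706833) ranged from 0 in leaf 3 to 68.0 FPKM in leaf 4.

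At least 1 leaf library stood at or above the lowest C. rubella bud in 32 members (37.6%), and all 10 did in 6 (7.06%). Over tested rows these shares were 72.4% and 32.9%. In the fit of C. grandiflora leaf against C. grandiflora bud, 63 members passed the filter. Of these, 16 (25.4%) were called higher in leaf, where 32.2% of all tested rows were (limma, adjusted p below 0.05). Another 16 (25.4%) were called lower in leaf, against a background of 37.4%. The counts and the background both moved with the processing. After quantile normalization 25 were called higher (41.0%, against 38.6% of all tested rows) and 12 lower (19.7%, against 36.2%). After upper quartile scaling 14 were called higher (22.2%, against 23.4%) and 18 lower (28.6%, against 52.5%). The bud side of that fit was among the values that chose the members, so nothing is read from these shares.

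A small set of members had a much higher mean in leaf than in the buds of either species, though not always in every leaf library. Every leaf library lay above the highest C. rubella bud in 4 members, against 3891 of 16923 tested rows. The members described here are those with the highest leaf means. Carubv10006117m (scaffold 7, 17170319 to 17171080) lay between 1278 and 26148 FPKM in the 10 leaves, with a median of 8324 FPKM. In buds it stood at 25.4, 6.6, 28.1 and 74 FPKM in C. grandiflora and at 211, 294, 77.2 and 213 FPKM in C. rubella. The highest C. grandiflora and the lowest C. rubella bud were close, and C. rubella bud 3 was the low one. Carubv10018416m (scaffold 5, 13369577 to 13370121) was the steadiest of these in leaf, at 2203 to 5471 FPKM, with 3.78 to 18.7 FPKM in C. grandiflora and 39.7 to 71.1 FPKM in C. rubella buds.

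Carubv10021136m had the widest leaf range of the members on the log2(FPKM + 1) scale, from 1.01 FPKM in leaf 8 to 6593 and 6892 FPKM in leaves 7 and 3. Carubv10021135m (scaffold 2, 3966063 to 3967031) ranged from 132 to 2500 FPKM in leaf, and from 5.05 to 67.7 and from 145 to 244 FPKM in C. grandiflora and C. rubella buds. Of 166 tested rows with a leaf mean of at least 1000 FPKM, 124 had a higher mean in C. rubella buds, with a median difference of 0.46, where the median over all tested rows was 0.01. In that set 72 were called higher and 6 lower in C. rubella (limma, adjusted p below 0.05). Over all tested rows these calls covered 11.9% (higher) and 2037 of 16923 (lower). A leaf mean of at least 1000 FPKM was reached by 4 members, of which Carubv10021136m failed the filter and is not in that set. The part of leaf tissue in bud samples in these members was not tested here.

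Members lay on all 8 main scaffolds, from 3 of 1762 tested rows on scaffold 8 (0.170%) to 14 of 1811 on scaffold 5 (0.773%). Scaffold 6 held 17 members, the most. Another 2 lay on small scaffolds, which held 137 tested rows. The genomic span from start to end, introns included, had a median of 1585 bases for members, 1478 for mirrored rows and 2614 for tested rows. Rows listed at the same coordinates carry the same span, which need not be that of each gene. A row that shares its coordinates with another row may divide the reads of a locus with it. Shared coordinates were found in 3 members (3.53%), against 13.6% of tested rows. They were Carubv10003773m (scaffold 6, 14439025 to 14443760), Carubv10020509m (scaffold 2, 11508575 to 11513565) and Carubv10019035m (scaffold 5, 12755881 to 12759032), whose levels are uncertain for that reason. Carubv10003773m stood at 1.54 to 14.7 FPKM in C. grandiflora and at 26.9 to 81.8 FPKM in C. rubella buds.

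Some members lay side by side. With a gap of at most 50 kb, 18 members formed 6 clusters of 2 to 5, and 9 members were direct neighbours of another. The 131 tested rows next to a member had a median species difference of 0.09, and 22 of them (16.8%) were called higher and 12 (9.16%) lower in C. rubella, against 11.9% (higher) and 2037 of 16923 (lower) over all tested rows (limma, adjusted p below 0.05).

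The longest unbroken run was on scaffold 6, from 672196 to 683895, where 5 consecutive rows within 11.7 kb were all members. Their order is Carubv10003698m, Carubv10003102m, Carubv10003475m, Carubv10003650m and Carubv10001442m. The nearest rows on each side did not share the difference. Carubv10001899m, before the run, differed by -0.32 (SE 0.08) and Carubv10003543m, after it, by 0.55 (SE 0.36).

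Within the run, 4 of the 5 genes were highest in C. grandiflora bud 3 among the buds of that species. Carubv10003650m (678838 to 680155) stood at 14.7, 4.38, 55.0 and 6.18 FPKM in C. grandiflora and at 294, 267, 264 and 315 FPKM in C. rubella buds, a difference of 4.39 (SE 0.64). Carubv10003475m (675418 to 678463) stood at 16.9, 4.2, 67.5 and 3.99 FPKM and at 106, 98.5, 86.1 and 108 FPKM, with a difference of 2.91 (SE 0.76). The C. rubella values were even and the C. grandiflora values were not, with the same bud on top and bud 1 second. Carubv10003698m (672196 to 672992) followed the same order of high buds, at 8, 3.74, 36.8 and 4.43 FPKM, against 48.9 to 97.4 FPKM in C. rubella, and differed by 2.81 (SE 0.61).

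Carubv10003102m (673025 to 674576) also peaked in bud 3, at 3.36, 0.33, 4.51 and 0.57 FPKM, against 13.9 to 20.02 FPKM in C. rubella, with a difference of 2.74 (SE 0.45). Carubv10001442m, the last of the run, stayed at 0.53 FPKM or below in every C. grandiflora bud, bud 3 included. Its difference was the largest of the run.

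In leaf, the genes of this run were not alike. Carubv10003698m and Carubv10003102m were listed at 0 in all 10 libraries. Carubv10001442m measured 26.3, 25.9, 22.6 and 21.0 FPKM in leaves 1, 2, 5 and 7, 2.39 in leaf 6 and 0.71 in leaf 4, and it was listed at 0 in leaves 3, 8, 9 and 10. The same 4 leaves, 1, 2, 5 and 7, were the highest for Carubv10003650m, at 46.5, 55.6, 39.9 and 76.6 FPKM. Carubv10003475m was lowest in leaves 3 and 4, at 0.68 and 0.81 FPKM, where Carubv10003650m was lowest too, at 0.70 and 1.65 FPKM. In leaves 6, 9 and 10 Carubv10003475m measured 37.3, 25.3 and 22.5 FPKM while Carubv10001442m was at 2.39, 0 and 0, so the high leaves were not all shared.

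**Figure D5:**
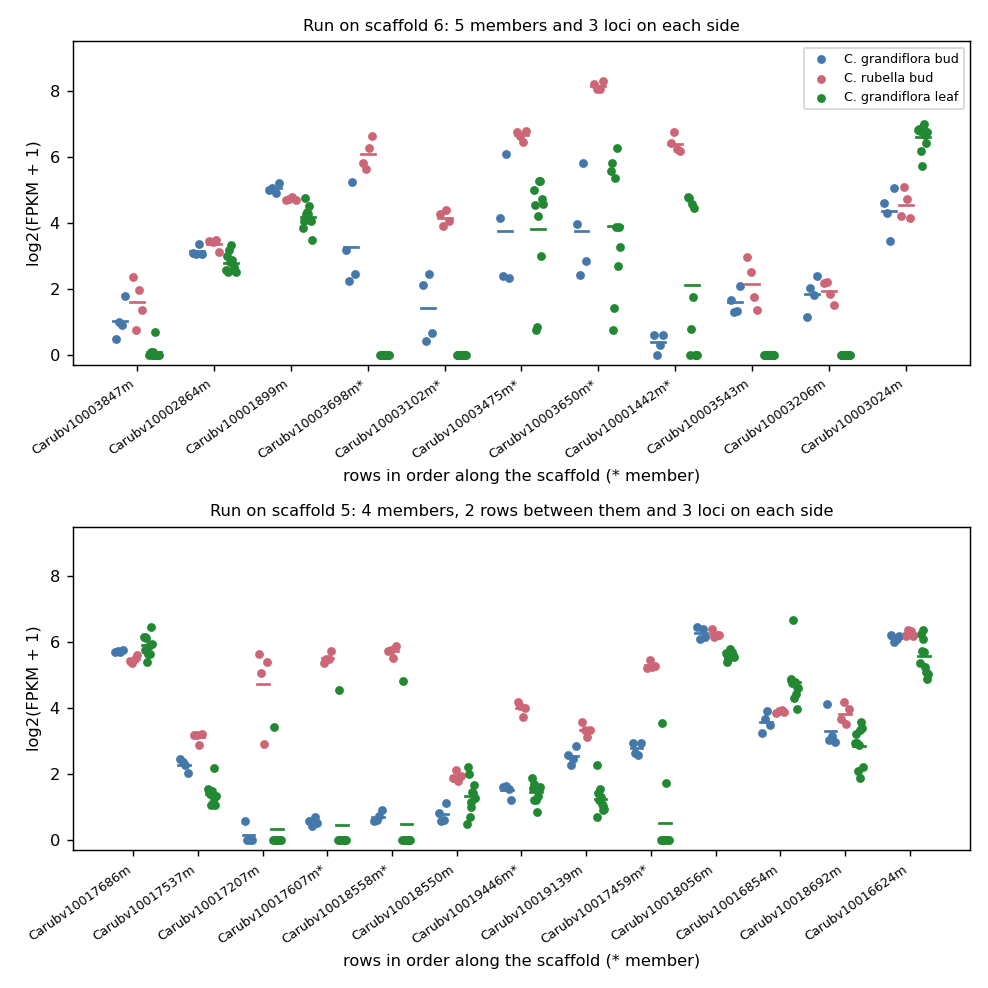
Log2(FPKM + 1) per library of the rows along the runs on scaffold 6 (top) and scaffold 5 (bottom), with C. grandiflora buds in blue, C. rubella buds in red, C. grandiflora leaves in green and short lines at the means. On scaffold 6 the rows beside the 5 members lie close in both species, and Carubv10001899m is slightly lower in C. rubella. On scaffold 5 the highest green points at Carubv10017207m, Carubv10017607m, Carubv10018558m and Carubv10017459m are leaf 2.

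A second run lay on scaffold 5, from 10716434 to 10740621, with 4 members and 2 other rows within 24.2 kb. Carubv10017607m (10716434 to 10718075) stood at 0.5, 0.34, 0.63 and 0.44 FPKM in C. grandiflora and at 40.5, 44.1, 44.0 and 52.6 FPKM in C. rubella buds, a difference of 4.97 (SE 0.11). Its neighbour Carubv10018558m (10718226 to 10719359) stood at 0.5, 0.51, 0.67 and 0.87 FPKM and at 51.9, 53.6, 45.2 and 57.5 FPKM, a difference of 5.02 (SE 0.11). Both were uniform among the buds of each species, with no bud of either near those of the other. Further along, Carubv10019446m (10727123 to 10729623) and Carubv10017459m (10737461 to 10740621) differed by 2.49 (SE 0.14) and 2.52 (SE 0.11). The 2 rows inside the run that were not members, Carubv10018550m and Carubv10019139m, which flank Carubv10019446m, were also higher in C. rubella, by 1.16 (SE 0.17) and 0.80 (SE 0.15). Beyond the run, Carubv10018056m differed by -0.03 (SE 0.10).

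In leaf, several genes of this run were on in the same library. Carubv10018558m measured 27.2 FPKM and Carubv10017607m 22.1 FPKM in leaf 2, and both were listed at 0 in the other 9 leaves. Carubv10017459m measured 10.7 FPKM in leaf 2 and 2.34 FPKM in leaf 7 and was listed at 0 in the other 8. The row before the run, Carubv10017207m (10712852 to 10715975), measured 9.72 FPKM in leaf 2 and was listed at 0 in the other 9. It was examined after its values were seen and is not a member, because C. grandiflora bud 1 held 0.5 and buds 2 to 4 were listed at 0. Its C. rubella buds stood at 48.4, 32.2, 6.46 and 41.0 FPKM. Carubv10019446m, in the same run, was even in leaf, at 0.80 to 2.66 FPKM in all 10 libraries.

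The remaining clusters were smaller. On scaffold 7, Carubv10006117m and Carubv10005988m (17181930 to 17182908) lay 1 row apart, and both were abundant in leaf. Carubv10005988m ranged from 201 to 3785 FPKM in leaf, from 3.86 to 20.3 FPKM in C. grandiflora buds and from 34.4 to 146 FPKM in C. rubella buds. Both were lowest in bud 2 of C. grandiflora and bud 3 of C. rubella. The row between them and the 3 rows after them were also higher in C. rubella, by 0.95 to 1.40 (SE 0.27 to 0.57). Of the 3 rows before them, Carubv10006071m differed by -0.13 (SE 0.93), Carubv10007875m by 1.95 (SE 1.02) and Carubv10006008m by 1.33 (SE 0.69).

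On scaffold 4, Carubv10024808m and Carubv10023870m (7784290 to 7785891) lay 1 row apart and were both low in C. grandiflora bud 3, the latter at 1.34 FPKM against 16.4 to 18.4 FPKM in the other 3 buds. Carubv10023870m stood at 37.2 to 90.8 FPKM in C. rubella, and its difference of 2.43 was 1.69 without bud 3. On scaffold 5, Carubv10019286m (12750935 to 12752780) stood at 2.08, 1.51, 2.33 and 0 FPKM in C. grandiflora and at 13.6 to 20 FPKM in C. rubella buds, a difference of 2.996 (SE 0.36). Its direct neighbour was Carubv10019035m, at 1.37 to 9.23 FPKM and 18.7 to 31.8 FPKM. The other row at those coordinates, Carubv10018030m, measured 392 to 417 FPKM and 500 to 594 FPKM.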

How the data were processed

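The authors deposited 1 table of FPKM for 19350 gene rows in 18 libraries, per the file headers. Bowtie, TopHat and Cufflinks are named in the submitters' processing notes; no source used here gives their versions, filters or scaling. Positions refer to CR v1 JGI, per the file headers; reads that differ from that build could be counted less well. Columns were matched to libraries by title. Bud columns are rounded to 2 decimals and leaf columns are not; depth and its precision are unknown. Replicate numbers follow accession order, and p-values measure the spread between these libraries.

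Values were analysed as log2(FPKM + 1), which understates folds of low genes. Rows with at least 1 FPKM in at least 4 libraries of a fit were tested with limma 3.58.1 in R 4.3.3 (empirical Bayes, mean trend, Benjamini-Hochberg over all tested rows, threshold 0.05), and the fits were tested on simulated data. Summaries used Python 3.11.15. SE is that of the limma fit. Genes were named by a written rule: largest differences, highest C. rubella bud and leaf means, widest leaf ranges, the threshold, adjacency or shared coordinates, and the extremes of C. rubella spread. The members and lists were chosen with earlier results of these data known. Keyword classes and tissue markers could not be applied without gene names. Alternatives covered pseudocount, filter, scaling, trend, a joint fit and leaving out libraries.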

Additional observations from a re-analysis of the deposited data

Results flagged for a closer look

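Over 99 sets of libraries (the named members in each group), 9 held a library far from the rest on the log2(FPKM + 1) scale. Chance gives about 1 in 20 for sets not chosen by their spread. Some members were named for a wide leaf range or an extreme C. rubella spread, Carubv10015468m among them. The count is therefore not compared with that rate. In leaf, Carubv10018558m and Carubv10017607m stood at 27.2 and 22.1 FPKM in C. grandiflora leaf 2 and were listed at 0 in the other leaves. Carubv10005768m stood at 33.1 FPKM in leaf 7 against 0.160 or less, and Carubv10014551m at 1.46 FPKM in leaf 7 against 0.359 or less. Carubv10024808m stood at 0.282 FPKM in leaf 3 against 0.121 or less, and Carubv10024819m at 0.950 FPKM in leaf 6 against 0.381 or less. In buds, Carubv10024808m stood at 2.68 FPKM in C. grandiflora bud 3 against 88.7 or more. Carubv10024819m stood at 2.03 FPKM in C. grandiflora bud 4 against 0.70 or less. Carubv10015468m stood at 46.4 FPKM in C. rubella bud 2 against 4.53 or less.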

How the results depend on the processing

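The number of rows that met the rule was 85 with a pseudocount of 1, 150 with 0.1 (all 85 among them) and 29 with 5 (all of them members). It was 91 after upper quartile scaling (79 of them members), 87 after quantile normalization and 98 with no floor. Leaving out 1 bud library gave 78 to 99 rows, of which 66 to 83 were members, the fewest without C. grandiflora bud 3. It was 106 without both columns that hold 0.5, an alternative chosen after seeing the data. The count of members called higher in leaf was 16 (25.4%, against 32.2% of all rows), or 25 after quantile normalization (41.0%, against 38.6%) and 15 with a filter of 5 FPKM (42.9%, against 37.1%), so its side of the background changed. The count called lower in leaf was 16 (25.4%, against 37.4%), or 32 with no filter, which tests more rows (37.6%, against 39.4%), and 4 with a filter of 5 FPKM, which tests fewer (11.4%, against 33.1%). With 1 C. grandiflora bud left out these counts were 12 to 15 and 14 to 18, with shares below those of all tested rows each time. Members on in some leaves and off in others numbered 21. They numbered 25 with off at 0.5 FPKM or below (29.4%, against 3.99% of tested rows) and 30 with on at 1 FPKM (35.3%, against 5.14%). No paired analysis was possible because the leaf libraries came from other C. grandiflora plants than the bud libraries. The titles of 3 C. grandiflora bud libraries share a prefix with a leaf library, and the labels do not say whether those plants were related. With that prefix as a random block (within-block correlation 0.146) the leaf counts were 16 and 16, and without those leaf libraries 15 and 17, both chosen after seeing the data. Unknown depth limits every low value.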
